A study of Mus musculus with 6 samples.

Results

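Imprinted genes are transcribed mainly from 1 parental copy, and 10 of them were followed here in 2 mouse cell lines: Peg3, Usp29, Zim1, Ndn, Snrpn, Grb10, Mest, Plagl1, Cdkn1c and Impact. They were chosen by symbol, and all 10 had an entry among the 34724 genes of the deposited gene table. A read was counted for 8 of the 10 in at least 1 library, and 5 of the 10 had enough reads for a test. Native RNA strands, and not cDNA copies, were read on nanopores in 3 libraries of 2H-11 and 3 libraries of SVEC4-10. By the labels 2H-11 stands for tumor endothelial cells and SVEC4-10 for their normal counterpart, and the study set the RNA of the lines side by side. Both lines are SV40 transformed, come from the axillary lymph node of adult C3H/HeJ mice, and carry no further treatment or allele in the labels. As each kind of cell is represented by 1 line, tumor or normal origin and other features of a line cannot be told apart. Whether the 3 libraries of a line are separate cultures is not stated, so p-values refer to the spread between these libraries alone, and that spread may be technical.

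Imprinted genes lie in domains, and in each domain a control region that carries DNA methylation on 1 parental copy sets which copy is active. ZFP57, a zinc finger protein, binds many of these regions and, with TRIM28, helps to keep their methylation. Many imprinted genes act on growth of the embryo and placenta, and several are turned down in most tissues after birth. C3H/HeJ is an inbred strain, so maternal and paternal transcripts cannot be told apart in these lines, and every level below is a sum over both copies.

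Totals ran from 3628400 to 16798666 counted reads per library, and SVEC4-10 replicate 3 alone held 68.0% of the reads of its line. Levels are given in CPM, the reads of a gene divided by the counted reads of its library and multiplied by 1000000, with no correction for transcript length. They are used here to compare lines and not genes. A gene with no read can still have been present at up to 0.196 CPM in 2H-11 or 0.121 CPM in SVEC4-10, the level of 3 reads in the summed libraries of the line. Markers of the labelled cell type were sparse, since 10 of 21 pan-endothelial genes, among them Vwf, Tie1, Cldn5, Erg and Emcn, had no read in any library. The summed level of the 21 was 61.1 to 72.7 CPM in 2H-11 and 5.51 to 9.17 CPM in SVEC4-10, and 3 of the 3 that were tested (Ecscr, Eng and Egfl7) were higher in 2H-11. Ecscr alone made up 47.7 CPM of the 2H-11 mean, and Flt4, not tested, had 8 reads in 2H-11 and 63 in SVEC4-10. Of 10 mesothelial markers, 7 of the 8 tested were lower in 2H-11, with a summed level of 59.6 to 74.0 CPM against 4692 to 5484 CPM. Lrrn4, Gpm6a and Krt8 had no read in 2H-11, and the eighth, Krt19, was higher there (339 reads against 4). Of 9 tested fibroblast and mural genes 6 were higher in 2H-11, among them Pdgfrb with 417 reads against 0, while the list summed to 2152 to 2808 and 2114 to 2475 CPM. Of 7 lymphatic endothelial genes 5 had no read, Pdpn did not pass, and Mmrn1 was lower in 2H-11 (0 reads against 144). The endothelial label was thus not borne out by most of its markers in either line, and 2H-11 and SVEC4-10 are compared below as lines and not as tumor and normal endothelium. The part of these marker differences in the results below was not tested, and in such bulk libraries fewer cells of a type and less RNA per cell cannot be told apart.

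Among the 10 imprinted genes, Ndn, Snrpn and Grb10 were higher in 2H-11, Peg3 was lower in 2H-11, and Impact did not pass the test. Usp29, Zim1, Mest, Plagl1 and Cdkn1c had too few reads to be tested. The test was edgeR's quasi-likelihood test on counts, with the Benjamini-Hochberg adjusted p over all 13187 genes tested and a threshold of 0.05. By the same test 36.2% of all genes passed, 20.1% of all as higher and 16.2% as lower in 2H-11. The 4 of 5 tested members that passed were chosen with earlier results of these data known, and those that passed the filter on low counts are not the whole set of 10. In those 4 the libraries of the lines did not overlap in CPM, as in 46.8% of all genes tested. The median log2 fold change of the 5 was 2.24, and that of all genes tested was 0.0025.

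**Figure D1:**
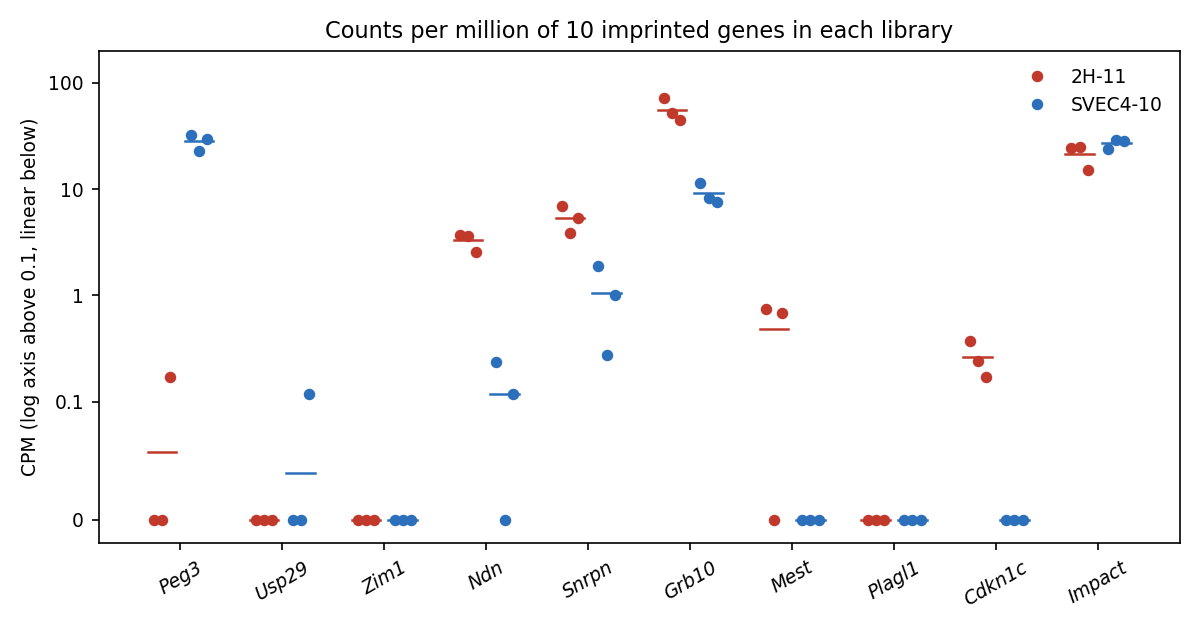
Level of each of the 10 imprinted genes in each library, in CPM on an axis that is logarithmic above 0.1 and linear below, with a point per library (red 2H-11, blue SVEC4-10) and a short line at the mean of 3. Peg3 sits at 22.9 to 32.5 CPM in SVEC4-10 and at 0 to 0.172 CPM in 2H-11, Ndn, Snrpn and Grb10 are higher in 2H-11, and the points of Impact overlap.

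Peg3, Usp29 and Zim1 form one imprinted domain on chromosome 7. Peg3 encodes a zinc finger protein expressed from the paternal copy, Usp29 a ubiquitin-specific peptidase of the same paternal copy, and Zim1 a zinc finger protein expressed from the maternal copy. In GENCODE M21 on GRCm38, Peg3 (ENSMUSG00000002265) is on the minus strand at chr7:6703892-6730431 and Usp29 (ENSMUSG00000051527) is on the plus strand at chr7:6730578-6967219. Their starts are 0.147 kb apart and point away from each other. Zim1 (ENSMUSG00000002266) is on the minus strand at chr7:6671269-6696450, with its start 33.981 kb from that of Peg3. The stretch between the annotated starts of Peg3 and Usp29, chr7:6730432-6730577, is shown because both genes start at its edges while their read counts differed. It is 146 bases long, on the plus strand of the reference genome (GRCm38.p6), with its 5 CG pairs in capitals:
Peg3 to Usp29: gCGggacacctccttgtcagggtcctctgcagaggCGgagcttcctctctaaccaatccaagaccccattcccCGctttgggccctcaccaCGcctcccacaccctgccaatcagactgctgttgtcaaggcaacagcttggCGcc

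Of the Peg3 domain, only Peg3 had more than 2 reads in all, with 715 in SVEC4-10 and 1 in 2H-11. Whether the 3 genes move together could therefore not be tested. Peg3 was counted 139, 83 and 493 times in SVEC4-10 replicates 1 to 3 and 0, 0 and 1 times in 2H-11 replicates 1 to 3. This is 32.5, 22.9 and 29.3 CPM in SVEC4-10, and 0, 0 and 0.172 CPM in 2H-11. Every SVEC4-10 library was above every 2H-11 library. The means were 28.2 ± 4.90 CPM (SD, n = 3) in SVEC4-10 and 0.0572 ± 0.0991 CPM (SD, n = 3) in 2H-11. Summed over the libraries and divided by the totals, Peg3 was 443 times higher in SVEC4-10, with an exact 95% counting interval of 79.3 to 17521. The fitted log2 fold change was -8.47 (SE 0.51), with an edgeR adjusted p of 3.5e-10. The single Peg3 read of 2H-11 lies in replicate 3. Without that library Peg3 was 91.5-fold lower in 2H-11 taken against 3 reads, and the exact 95% interval began at 74.2. With 2H-11 replicate 1 left out, Peg3 was 287 times higher in SVEC4-10 (51.4 to 11368).

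Usp29 was counted 2 times, both in SVEC4-10 replicate 3, the deepest library, at 0.119 CPM. The other 5 libraries had no Usp29 read, and with both lines under the level of 3 reads no fold is given. Zim1 had no read in any of the 6 libraries. Nothing can be said of a difference in Usp29 or Zim1 at this depth, while Peg3, which shares their domain and starts 0.147 kb from Usp29, reached 28.2 CPM in SVEC4-10. Zim2, Zim3, Zfp264, Peg3os and Apeg3, listed as further transcripts of the domain, were not matched in the gene table.

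The wider neighbourhood held 23 genes of the table that start within 500 kb of the Peg3 start. Of these 12 had a read and 5 were tested, and 1 of the 5 passed, beside 36.2% of all genes tested. Zfp667, a zinc finger gene whose start is 443.852 kb away, was higher in 2H-11, with means of 3.59 ± 1.11 and 0.854 ± 0.402 CPM (log2 fold change 1.70, edgeR adjusted p 0.00497). Without SVEC4-10 replicate 3 its log2 fold change was 2.31. The 4 other tested genes, all of the zinc finger family, gave small fitted differences. Zfp28 had a log2 fold change of 0.03 (adjusted p 0.965) and Zfp78 one of -0.07 (adjusted p 0.912). Zfp772 had a log2 fold change of -0.45 (adjusted p 0.376) and Zfp954 one of -0.50 (adjusted p 0.255). The nearest gene beyond Usp29, Aurkc, had 1 read in all, in 2H-11 replicate 3, and the nearest beyond Zim1, Olfr1350, had none. Within this window Peg3 was thus the one gene that passed as lower in 2H-11.

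**Figure D2:**
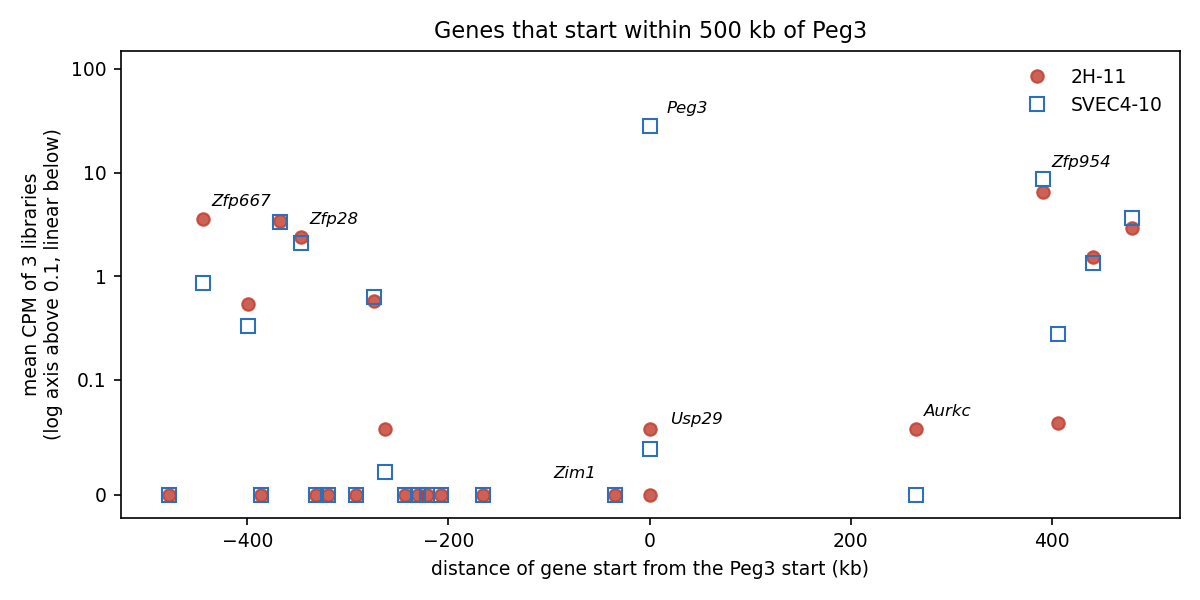
Mean CPM of 3 libraries of each line (filled circles 2H-11, open squares SVEC4-10; axis logarithmic above 0.1, linear below) for the genes that start within 500 kb of Peg3, against distance of the gene start in kb. Peg3 in SVEC4-10, at 28.2 CPM, stands alone at the centre, where Peg3 of 2H-11 and Usp29 lie under 0.1 CPM, and Zfp667 at the left edge is the gene that passed the test.

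The genes whose level was most like that of Peg3 over the 6 libraries were Smpd3, a sphingomyelinase, Hal, histidine ammonia-lyase, and Gabra4, a GABA receptor subunit. Likeness was the Pearson correlation of log2(CPM + 1), and it was 0.999 for each. Smpd3 averaged 0.0572 ± 0.0991 CPM in 2H-11 beside 238 ± 92.1 CPM in SVEC4-10. In all, 182 tested genes had a correlation above 0.99 with Peg3. The 6 points are 3 libraries of each line, so this measure mostly reads the difference between the lines, and it is given as a description only.

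Ndn and Snrpn lie in the imprinted domain on chromosome 7 that corresponds to the human Prader-Willi region, and both are expressed from the paternal copy. Ndn (necdin, ENSMUSG00000033585, plus strand, chr7:62346569-62350262) encodes a MAGE family protein that restrains growth and binds E2F1. It was counted 20, 15 and 15 times in 2H-11 and 1, 0 and 2 times in SVEC4-10. The levels were 3.72, 3.65 and 2.57 CPM in 2H-11 and 0.234, 0 and 0.119 CPM in SVEC4-10, with no overlap. The means were 3.32 ± 0.643 and 0.118 ± 0.117 CPM (SD, n = 3 each). The ratio of summed reads was 26.9 in favour of 2H-11, with an exact 95% counting interval of 8.69 to 135. Its log2 fold change was 4.47 (SE 0.59), with an edgeR adjusted p of 8.23e-06.

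Snrpn (ENSMUSG00000102252, minus strand, chr7:59982495-60140219) encodes SmN, a core protein of spliceosomal small nuclear ribonucleoproteins that stands in for the protein of Snrpb in brain. It was counted 37, 16 and 31 times in 2H-11 and 8, 1 and 17 times in SVEC4-10. These are 6.88, 3.90 and 5.32 CPM against 1.87, 0.276 and 1.01 CPM, again with every 2H-11 library above every SVEC4-10 library. The means were 5.37 ± 1.49 and 1.05 ± 0.798 CPM (SD, n = 3 each). Snrpn was 4.73-fold higher in 2H-11 (log2 fold change 2.24, SE 0.45, edgeR adjusted p 0.000693). Snurf, whose annotated span lies inside that of Snrpn, had no read, and reads of overlapping transcripts may have been assigned to either. The paralog Snrpb had means of 571 ± 57.1 and 634 ± 55.5 CPM in 2H-11 and SVEC4-10 and did not pass the test (log2 fold change -0.24, adjusted p 0.253).

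Of 7 other genes listed for this domain, 6 were in the table and 2 were tested. Atp10a, a phospholipid flippase at the edge of the domain, was higher in 2H-11, with means of 16.4 ± 1.13 and 8.18 ± 3.56 CPM (log2 fold change 0.84, edgeR adjusted p 0.0306). The call was lost without 2H-11 replicate 1 (adjusted p 0.0623) or 3 (0.0584) and without SVEC4-10 replicate 1 (0.0761) or 2 (0.133). Ube3a, the maternally expressed ubiquitin ligase of the domain, had a log2 fold change of -0.19 and did not pass, at 4.19 ± 1.85 against 4.43 ± 1.24 CPM. Magel2 and Snurf had no read in any library. Peg12 had 7, 4 and 17 reads in 2H-11 and 0, 1 and 2 in SVEC4-10, too few for the test, with a summed ratio of 15.1 (4.65 to 77.4) in favour of 2H-11, and of 9.56 (2.52 to 53.3) without 2H-11 replicate 3. Mkrn3 had 5, 1 and 1 reads in 2H-11 and 4, 7 and 6 in SVEC4-10, and its levels overlapped. Ndn, Snrpn, Atp10a and the untested Peg12 had non-overlapping levels in the same direction, while Ube3a and Mkrn3 overlapped. Levels did not overlap, in either direction, in 46.8% of all genes tested.

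Grb10 encodes an adapter protein that binds the insulin and IGF1 receptors and restrains their signal, and it is expressed from the maternal copy in most tissues. Grb10 (ENSMUSG00000020176) is on the minus strand at chr11:11930508-12038683. A RefSeq start of Grb10 lies in a dense CpG island. The 150 bases before this start, chr11:12037421-12037570, are shown for that density, on the minus strand of GRCm38.p6 with their 23 CG pairs in capitals:
Grb10 start: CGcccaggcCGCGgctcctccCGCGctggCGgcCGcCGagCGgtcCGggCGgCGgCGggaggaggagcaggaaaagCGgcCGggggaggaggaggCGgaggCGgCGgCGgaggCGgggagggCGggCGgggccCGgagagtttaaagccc

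The 300-base window around this Grb10 start (250 bases before to 50 after) held 45 CG pairs. As many or more were found in 1.93% of the 32851 RefSeq windows of that length, whose median was 7. This was the richer of 2 Grb10 windows. The other held 9 CG pairs, and 45.8% of all windows held as many or more. The window of Peg3 held 13 CG pairs and that of Usp29 held 17, and the pair of windows overlaps by 263 bases. Both strands were searched for TGCCGC, the letters that ZFP57 binds when methylated, and for GCCATNTT, a YY1 motif, which does not contain the first. TGCCGC was found in 11.6% of all windows and GCCATNTT in 6.05%. TGCCGC occurred once in the windows of Zim1 and Plagl1 and in 1 of 4 windows of Snrpn. It also occurred in 1 of 2 windows of Grb10, the one with 45 CG pairs. It occurred 2 times in each of 2 windows of Mest that overlap. GCCATNTT occurred in no window of Peg3, Usp29, Zim1, Ndn, Snrpn, Grb10, Mest or Plagl1. For Cdkn1c and Impact no window was examined. A match is a description of the letters and not of binding, and the control regions of these domains can lie outside such windows.

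Of the 3 members that were higher in 2H-11, Grb10 had the most reads. It was counted 384, 213 and 258 times in 2H-11 and 49, 30 and 127 times in SVEC4-10. This gave 71.4, 51.9 and 44.3 CPM in 2H-11 and 11.5, 8.27 and 7.56 CPM in SVEC4-10. The lowest 2H-11 library was well above the highest SVEC4-10 library. With means of 55.9 ± 14.0 and 9.09 ± 2.07 CPM (SD, n = 3 each), Grb10 was 5.87-fold higher in 2H-11 (log2 fold change 2.55, SE 0.24, edgeR adjusted p 1.57e-07).

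Cobl, the gene next to Grb10 on the upstream side, differed in the other direction. It encodes an actin nucleator, starts 426 kb from Grb10 and was counted 3, 1 and 1 times in 2H-11 and 31, 20 and 136 times in SVEC4-10. Its means were 0.324 ± 0.206 and 6.95 ± 1.32 CPM, and it was lower in 2H-11 (log2 fold change -4.45, edgeR adjusted p 1.12e-06). Without 2H-11 replicate 1 its fitted log2 fold change was -5.11. Fignl1 had a log2 fold change of -0.60 (adjusted p 0.0416), a call that was lost without 2H-11 replicate 3 (0.149), SVEC4-10 replicate 1 (0.0531) or SVEC4-10 replicate 2 (0.15). It was also lost with library size alone (0.0995), with limma-voom (0.0628) and on Ensembl genes only (0.0738), and the levels of Fignl1 overlapped between the lines. Ddc, the adjacent gene on the other side, had 4 reads in 2H-11 and 15 in SVEC4-10 and was not tested. Ikzf1 and 4930512M02Rik, the remaining genes that start within 500 kb of Grb10, had no read.

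**Figure D3:**
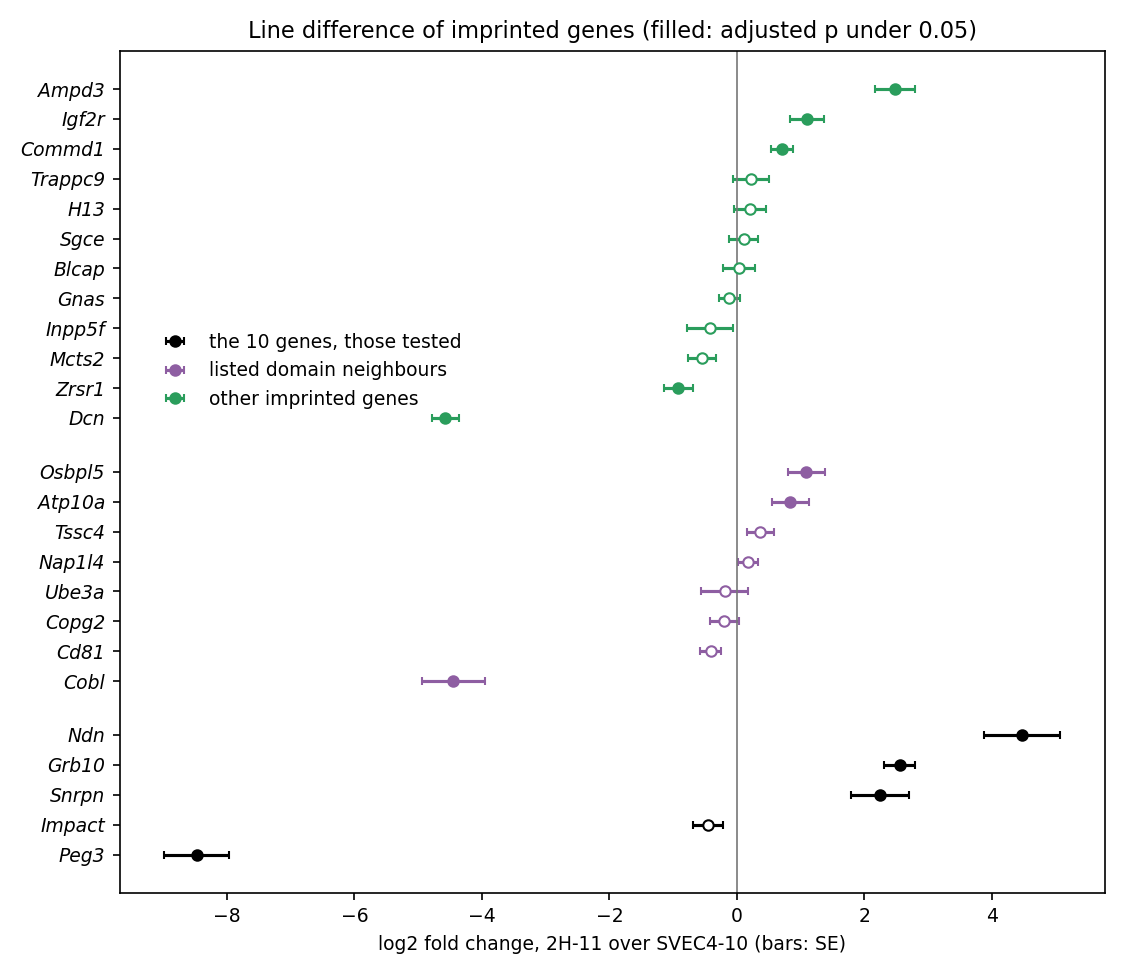
Fitted log2 fold change of 2H-11 over SVEC4-10 with its SE for the tested members (black), the tested genes listed as neighbours in their domains (purple) and other tested imprinted genes (green); filled points passed the edgeR test. Peg3 (-8.47), Dcn (-4.57) and Cobl (-4.45) lie far to the left and Ndn (4.47) far to the right, and Slc38a4 is left out because SVEC4-10 had no read of it.

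Cdkn1c, Mest and Plagl1, all regulators of growth in the embryo, were at or near the limit of detection. Cdkn1c (ENSMUSG00000037664, minus strand, chr7:143458339-143461050) encodes the cyclin-dependent kinase inhibitor p57 and is expressed from the maternal copy. It was counted 2, 1 and 1 times in 2H-11 and not at all in SVEC4-10, at 0.372, 0.244 and 0.172 CPM against 0. Taken against 3 reads over SVEC4-10, Cdkn1c was 2.15-fold higher in 2H-11, and the exact 95% interval of the ratio began at 1.07. With any 1 library other than 2H-11 replicate 3 left out, the interval began between 0.341 (without SVEC4-10 replicate 3) and 0.911 (without 2H-11 replicate 2), so that no difference was detectable. Cdkn1c was not tested in the main comparison, and in a fit with no filter on low counts it did not pass (edgeR adjusted p 0.108).

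The other kinase inhibitors of the same family had more reads and differed in direction. Cdkn1a, encoding p21, had means of 130 ± 13.4 and 33.8 ± 9.59 CPM in 2H-11 and SVEC4-10 (log2 fold change 1.86, edgeR adjusted p 1.12e-06). Cdkn1b, encoding p27, was at 14.2 ± 2.82 and 31.0 ± 8.25 CPM (log2 fold change -1.22, adjusted p 0.000487).

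Of 11 genes listed for the Cdkn1c domain, 10 were in the table and 4 were tested. Osbpl5, an oxysterol-binding protein gene, was higher in 2H-11, with means of 12.6 ± 1.33 and 5.40 ± 1.27 CPM (log2 fold change 1.09, edgeR adjusted p 0.0057). Tssc4, Nap1l4 and Cd81 did not pass, and Cd81 (log2 fold change -0.41, adjusted p 0.0556) passed as lower in 2H-11 without 2H-11 replicate 1 (0.0429) or SVEC4-10 replicate 3 (0.0264). Kcnq1, the gene next to Cdkn1c, and Phlda2 and Ascl2 had no read in any library. Slc22a18, on the other side, had 6 reads in 2H-11 and 2 in SVEC4-10. Tspan32, not tested, had 1 read in 2H-11 and 17 in SVEC4-10. Its summed ratio was 10.5 (1.65 to 440) in favour of SVEC4-10, and 6.83 without 2H-11 replicate 1, 6.52 without 2H-11 replicate 3 and at least 2.57 without 2H-11 replicate 2. Within 500 kb of Cdkn1c, 4 of 9 tested genes were higher in 2H-11, namely Osbpl5, Dhcr7, Tnfrsf22 and Tnfrsf23. This is 44.4% of those tested, beside 20.1% of all genes tested. Tnfrsf23, a decoy receptor gene, showed the largest fitted difference of the 4, with means of 10.1 ± 1.86 and 1.43 ± 0.433 CPM (log2 fold change 2.79, edgeR adjusted p 7.58e-06). Tnfrsf22, its close relative, was at 3.30 ± 0.307 against 0.553 ± 0.600 CPM (log2 fold change 1.95, adjusted p 0.00565), and its fitted log2 fold change was 3.46 without SVEC4-10 replicate 3. Dhcr7 was called at a log2 fold change of 0.89 (adjusted p 0.0131), and not without 2H-11 replicate 2 (0.0553), SVEC4-10 replicate 2 (0.0664) or SVEC4-10 replicate 3 (0.0637).

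Mest (ENSMUSG00000051855, plus strand, chr6:30723547-30748465) encodes a hydrolase-fold protein and is expressed from the paternal copy. It was counted 4, 0 and 4 times in 2H-11 and not at all in SVEC4-10, at 0.744, 0 and 0.687 CPM. Because 2H-11 replicate 2 had no read, the libraries of the lines overlapped at 0. Against 3 reads over SVEC4-10, Mest was 4.30-fold higher in 2H-11, and the exact 95% interval of the ratio began at 2.76. Without SVEC4-10 replicate 3 the fold against 3 reads was 1.38 and the interval began at 0.882, so that no difference was detectable. It had too few reads for the main test, and with no filter on low counts it passed (edgeR adjusted p 0.0179). Copg2, whose 3' end overlaps that of Mest on the other strand, did not pass (log2 fold change -0.20, adjusted p 0.557). Of the 6 tested genes within 500 kb of Mest, Ube2h was lower in 2H-11 (log2 fold change -0.68, adjusted p 0.0189), a call that was lost without SVEC4-10 replicate 3 (0.0699) or with library size alone (0.0546).

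Plagl1 (ENSMUSG00000019817, plus strand, chr10:13060504-13131694) encodes a zinc finger transcription factor that regulates other imprinted genes. It had no read in any of the 6 libraries. The gene next to it, Sf3b5, had 6352 reads in 2H-11 and 11500 in SVEC4-10 and did not pass the test. Among 7 tested genes within 500 kb of Plagl1, Fuca2 was called higher (adjusted p 0.016) and Ltv1 lower (0.0216) in 2H-11. The call of Fuca2 was lost without 2H-11 replicate 1 (0.0658) or 2 (0.0741) and without SVEC4-10 replicate 1 (0.0793) or 3 (0.0884). That of Ltv1 was lost without 2H-11 replicate 2 (0.0606) or 3 (0.0603) and without SVEC4-10 replicate 2 (0.123).

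Impact encodes a protein that binds Gcn1 and so restrains the kinase Gcn2 (Eif2ak4), which slows translation when amino acids are scarce, and it is expressed from the paternal copy in mouse. Impact (ENSMUSG00000024423) is on the plus strand of chromosome 18 at 12955852 to 12992950. It was counted 130, 101 and 88 times in 2H-11 and 102, 105 and 475 times in SVEC4-10. The levels were 24.2, 24.6 and 15.1 CPM in 2H-11 and 23.8, 28.9 and 28.3 CPM in SVEC4-10. The lines overlapped, with 2H-11 replicate 3 as the low value. At means of 21.3 ± 5.37 and 27.0 ± 2.77 CPM (SD, n = 3 each), the log2 fold change of -0.45 (SE 0.23) did not pass the test (edgeR adjusted p 0.141). Gcn1 (log2 fold change -0.39) and Eif2ak4 (-0.12) did not pass either. Both tested neighbours of Impact were higher in 2H-11, as were 20.1% of all genes tested. Ttc39c was at 4.25 ± 1.11 against 0.695 ± 0.141 CPM (log2 fold change 2.40, adjusted p 0.000244). Osbpl1a, the adjacent gene, had a log2 fold change of 1.12 (adjusted p 0.0189), a call that was lost without 2H-11 replicate 3 (0.0589), SVEC4-10 replicate 2 (0.0563) or SVEC4-10 replicate 3 (0.142), and with libraries thinned to the smallest total (0.0577).

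The authors' deposited table gives DESeq2 values for 5 of the 10 genes, the same 5 that were tested here. In the authors' deposited table the log2 fold change was -6.78 for Peg3 (adjusted p 5.25e-24), 3.61 for Ndn (4.7e-06) and 2.04 for Snrpn (0.000384). It was 2.46 for Grb10 (1.97e-19) and -0.49 for Impact (0.139), again from the authors' deposited table. The directions and the sides of the threshold were those of the fit used here.

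Over all the domains, 32 further genes were listed as neighbours, of which 22 were in the table, 15 had a read and 8 were tested. Atp10a and Osbpl5 were higher and Cobl was lower in 2H-11, and 5 did not pass. Those that passed are 37.5% of the tested neighbours, beside 36.2% of all genes tested. Within 500 kb of any of the 10 genes, 79 genes of the table start, 47 had a read and 31 were tested. Of the 31, 25.8% were higher and 12.9% lower in 2H-11, beside 20.1% and 16.2% of all genes tested. Their median log2 fold change was -0.20.

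A list of 40 other imprinted genes gives the setting for these 10. Of the 35 in the table, 12 had no read in any library, among them Dlk1, and 13 were tested. In 2H-11, 4 were higher and 2 lower, which is 46.2% of those tested beside 36.2% of all genes, and their median log2 fold change was 0.10. Slc38a4, an amino acid transporter gene, was counted 105, 66 and 82 times in 2H-11 and not at all in SVEC4-10. Taken against 3 reads, Slc38a4 was 136-fold higher in 2H-11, and the exact interval of the ratio began at 109.9. Its edgeR adjusted p was 7.36e-09. Without SVEC4-10 replicate 3 the fold against 3 reads was 43.6 and the interval began at 35.2. Dcn, encoding the matrix proteoglycan decorin, was lower in 2H-11, with means of 13.8 ± 2.59 and 307 ± 52.4 CPM (log2 fold change -4.57, adjusted p 1.38e-11). Ampd3, an AMP deaminase gene, was higher, with means of 12.7 ± 0.611 and 2.11 ± 0.714 CPM (log2 fold change 2.48, adjusted p 5.68e-06). Commd1 and Igf2r were the other genes that were higher and Zrsr1 the other gene that was lower. Gnas and Sgce were well covered and did not pass, with log2 fold changes of -0.12 and 0.10.

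Genes that maintain imprints were also examined, since the control regions depend on them. Of 21 listed, 17 were tested, 1 was higher and 4 were lower in 2H-11, which is 29.4% of those tested beside 36.2% of all genes. Zfp57 was lower in 2H-11, at 24.0, 16.6 and 18.0 CPM against 104, 63.4 and 86.8 CPM, with no overlap. Its means were 19.5 ± 3.94 and 84.8 ± 20.5 CPM (SD, n = 3 each), with a log2 fold change of -2.20 (edgeR adjusted p 2.72e-07). Dnmt3a, a DNA methyltransferase gene, had a log2 fold change of -1.04 (adjusted p 0.0127), a call that was lost without 2H-11 replicate 2 (0.0596) or with libraries thinned to the smallest total (0.0507). Eed, of Polycomb repressive complex 2, had a log2 fold change of -0.64 (adjusted p 0.0196), lost without 2H-11 replicate 3 (0.0646) or SVEC4-10 replicate 2 (0.0647). Hells was the other gene lower and Uhrf1 the one higher. The call of Uhrf1 (adjusted p 0.0479) was lost without any 1 of 5 libraries, as with 2H-11 replicate 1 left out (0.273), 2H-11 replicate 2 (0.129), SVEC4-10 replicate 1 (0.0947), 2 (0.199) or 3 (0.097). It was also lost with the replicate block (0.1), DESeq2 size factors (0.0527), limma-voom (0.0679), no filter (0.0813) and thinning (0.0532), so that 5 of 15 alternatives kept it. That of Hells (0.0213) was lost without 2H-11 replicate 3 (0.0832) or SVEC4-10 replicate 2 (0.0748), and with library size alone (0.0544). Dnmt1, Trim28 and Zfp445 did not pass, with log2 fold changes of 0.29, -0.27 and -0.09. DNA methylation was not measured in these libraries.

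Partners and paralogs of the 10 genes made up the last list, with 21 genes and 19 tested. In 2H-11, 4 were higher and 4 lower, which is 42.1% of those tested beside 36.2% of all genes. Grb14, the paralog of Grb10, was lower in 2H-11 while Grb10 was higher, with means of 2.40 ± 0.192 and 8.55 ± 2.90 CPM (log2 fold change -1.94, edgeR adjusted p 0.000244). Of the receptors that Grb10 binds, Igf1r was lower in 2H-11 (log2 fold change -0.92, adjusted p 0.00504) and Insr did not pass (-0.42). Maged2, a MAGE family gene like Ndn, was higher, with means of 101 ± 10.8 and 44.4 ± 9.16 CPM (log2 fold change 1.11, adjusted p 0.000143). Maged1, another of that family, was also called higher (log2 fold change 0.48), a call lost without 2H-11 replicate 1 (0.0984), 2H-11 replicate 2 (0.109), SVEC4-10 replicate 2 (0.0672) or SVEC4-10 replicate 3 (0.168), and with no filter (0.0812). The others that passed were Cdkn1a and Ccnd1, higher, and Cdkn1b and Cdk2, lower in 2H-11.

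The fold changes of the 5 tested members held their direction under other settings. Over 15 alternatives the fitted log2 fold change of Peg3 ran from -10.63 to -7.73 and that of Grb10 from 2.33 to 2.68. Ndn ran from 4.04 to 4.72 and Snrpn from 1.94 to 2.55, over the 14 alternatives in which each could be tested. Impact ran from -0.61 to -0.27, and its adjusted p stayed between 0.0721 and 0.39.

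**Figure D4:**
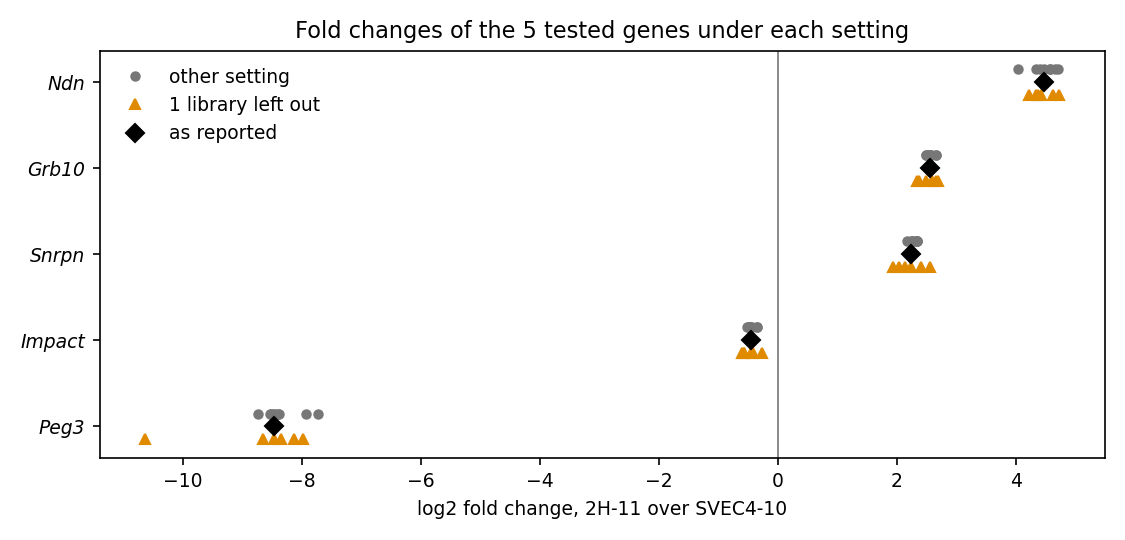
Fitted log2 fold change (2H-11 over SVEC4-10) of the 5 tested members as reported (black diamonds), under other settings (grey circles) and with 1 library left out (orange triangles). Peg3 has 1 triangle at -10.63, the fit without 2H-11 replicate 3, which held its single read in that line, and no point of any gene crosses 0.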

How the data were processed

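Direct RNA libraries were made from total RNA with an Oxford Nanopore kit, per the labels' protocols, and builds mm10 and GRCm38 are named in the submitters' processing notes. The sources used here do not give the aligner, the counter, the strand setting or the read filters. The authors deposited raw read counts per gene, the same counts as CPM (equal to count over total within 4.84e-06) and DESeq2 fold changes. Another 13 lines held no gene name and were dropped.

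Counts were fitted with edgeR 4.0.16 in R 4.3.3 (filterByExpr with minimum count 10 and total 15, TMM, line as the only term); the biological coefficient of variation was 20.2%. The fit was also run on simulated counts with 200 genes changed and this coefficient for every gene. That run does not give the error rates of the fit in the real counts. Ratios and limits at 0 reads use summed counts, are at 95% and cover counting error only. A fold taken against 3 reads leaves out the counting error of the line that had reads. Of 22036 Ensembl identifiers, 22022 were in GENCODE M21 (GRCm38). Promoter windows came from RefSeq (GRCm38.p6), whose sequence is of the reference strain and not of C3H/HeJ. Alternatives were a replicate block, DESeq2 1.42.0, limma-voom (limma 3.58.1), DESeq2 size factors in edgeR, library size alone, no filter, 20 counts in 3 libraries, Ensembl genes only, thinning, and each library left out.

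The members and lists were chosen with earlier results of these data known. Named were all members, every listed neighbour that passed, the 5 other imprinted genes and the 3 genes of each further list with the smallest p, and adjacent genes. Other genes were named after their values were seen. Tables and figures used Python 3.11.15, pandas 2.3.3 and matplotlib 3.10.9.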

Additional observations from a re-analysis of the deposited data

How the results depend on the processing

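The calls of Peg3, Ndn, Snrpn, Grb10 and Impact held under every alternative in which they could be tested. The number of members higher in 2H-11, 3 in the main comparison, was 1 with a filter of 20 counts in 3 libraries, since Ndn and Snrpn then had too few reads to be tested. On Ensembl genes only, to which the members belong, 1657 genes were higher in 2H-11, which is 16.3% of those tested in place of 20.1%, and 1631 lower. Other imprinted genes lower in 2H-11, 2 in the main comparison, numbered 5 with no filter and 2 to 5 with 1 library left out. Library size alone moved the median log2 fold change of all genes to 0.10. With replicate number as a block, 4 other imprinted genes were lower in 2H-11, and the members kept their calls (Peg3 adjusted p 4.69e-09, Impact 0.128). The cause of these shifts in the other imprinted genes was not tested. Libraries with the same number did not deviate together over the genes tested (correlations -0.018, 0.051 and -0.0026). Whether the numbers pair the samples stays unknown, since the labels do not say and a shared effect on few genes could be missed. Depth limits Usp29, Zim1 and Plagl1, where no difference was detectable, and Cdkn1c and Mest. The difference of Mest was not detectable without SVEC4-10 replicate 3. That of Cdkn1c was not detectable with any 1 library other than 2H-11 replicate 3 left out.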

Other observations

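Among other imprinted genes, 2 pairs that share a locus had values in opposite directions. Igf2r, the maternally expressed receptor that clears IGF2, was higher in 2H-11, with means of 23.8 ± 1.87 and 10.0 ± 4.07 CPM (SD, n = 3 each; log2 fold change 1.10, edgeR adjusted p 0.00345). Airn, the paternal noncoding RNA that starts within Igf2r, was counted 6, 4 and 1 times in 2H-11 and 11, 7 and 38 times in SVEC4-10, too few for the test. Its levels did not overlap, and the summed ratio was 3.15 in favour of SVEC4-10 (exact 95% interval 1.64 to 6.68). Commd1, a regulator of copper handling and of NF-kappaB, was higher in 2H-11, with means of 167 ± 15.97 and 96.0 ± 2.73 CPM (log2 fold change 0.70, adjusted p 0.00304). Zrsr1, a splicing factor gene that lies within Commd1 on the other strand, was lower in 2H-11, with means of 17.7 ± 2.42 and 31.7 ± 5.96 CPM (log2 fold change -0.92, adjusted p 0.00347). The use of strand in counting is not given, so reads of the genes in a pair cannot be told apart for certain.

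Of the other imprinted genes, 10 had reads but too few for the test, and in 6 of these the lines did not overlap. Meg3, Peg10 and Htr2a were above and Airn, Ppp1r9a and Sfmbt2 below in 2H-11. Levels did not overlap in 46.8% of all genes tested, and the share among untested genes was not computed. For Sfmbt2 the summed ratio was 3.41 in favour of SVEC4-10, and its exact counting interval of 0.744 to 31.6 included equal levels. For Peg10 it was 1.82 in favour of 2H-11 (1.01 to 3.29). Ppp1r9a was counted 0, 1 and 0 times in 2H-11 and 21, 7 and 62 times in SVEC4-10, a summed ratio of 55.8 in favour of SVEC4-10 (9.76 to 2227). With 2H-11 replicate 1 left out the ratio was 36.2, and with 2H-11 replicate 3 left out it was 34.5. Without 2H-11 replicate 2, which held its read, Ppp1r9a was 13.6-fold lower in 2H-11 taken against 3 reads, with the interval from 10.8. Htr2a, a serotonin receptor gene, was counted 14, 6 and 4 times in 2H-11 and not at all in SVEC4-10. Taken against 3 reads, it was 12.9-fold higher in 2H-11, and the interval began at 9.71. These values were 8.29-fold and 5.58 without 2H-11 replicate 1, and 4.13-fold and 3.11 without SVEC4-10 replicate 3. Meg3, a maternally expressed noncoding RNA, was counted 23, 10 and 4 times in 2H-11 and 1, 0 and 1 times in SVEC4-10, a summed ratio of 29.9 in favour of 2H-11 (7.70 to 256). It was not tested, and its 2H-11 libraries spread from 0.687 to 4.28 CPM. The ratio was 17.4 without 2H-11 replicate 1, 19.1 without SVEC4-10 replicate 3 and 49.4 without SVEC4-10 replicate 1. Igf2 had 2 reads in all, both in SVEC4-10 replicate 1.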
